A study of Mus musculus with 5 samples.

Results

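Gas6, Pros1 and their receptors Axl, Mertk and Tyro3 were followed as 5 of the 20355 genes counted in single cells of the colon mesenchyme of adult mice. The members were taken by gene symbol, as both vitamin K-dependent ligands and all of the receptors of the TAM family (named for Tyro3, Axl and Mertk), and all 5 symbols had a row in the tables. The cells came from untreated C57/BL6 mice aged 10 weeks, and no other allele, agent or condition was part of the study. Epithelium had been stripped with EDTA and DTT before the remaining tissue was digested with Collagenase XI and Dispase, and the freshly isolated cells were run through Drop-seq, a droplet method that tags each captured polyadenylated RNA with a cell barcode and a unique molecular identifier (UMI). There were 2 biological replicates, 1 run as collections 1A and 1B and the other as collections 2A, 2B and 2C. The number of animals behind each replicate is not in the labels. A p-value below therefore rests on 2 cell suspensions. It is set against the spread between their sums that remains once the general difference between the suspensions is removed. For each gene, that spread is estimated over all cell groups of a fit together, not from the 2 groups named in a pair. Some of the alternative analyses differ in this. In those without a replicate, the p-value measures the spread between collections of 1 suspension. In that with sums per collection, collections of the same suspension stood as separate samples.

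Gas6 and protein S (Pros1) are secreted proteins with a Gla domain, which is carboxylated in a vitamin K-dependent reaction and then binds phosphatidylserine on dying cells, platelets and vesicles. Their other end binds the TAM receptor tyrosine kinases. Gas6 is known to activate Axl, Mertk and Tyro3, whereas Pros1 is known as a ligand of Mertk and Tyro3. Axl and Mertk on phagocytes are best known for the uptake of apoptotic cells and for damping innate immune responses, and Pros1 is also a plasma anticoagulant.

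Of 7935 barcodes, 5985 were retained (at least 300 genes, at most 10% mitochondrial UMIs, no doublet call). They held 10177102 UMIs, with a median of 1330 UMIs and 757 genes per cell. The collections held 1449722 to 2929414 retained UMIs each, and 6 barcodes were shared between collections among the retained cells. Cells were grouped without using the family or its pathway genes, and groups were named from marker genes. The 10 classes tested were fibroblast-like (3133 cells), blood endothelial-like (575), macrophage-like (478), T, natural killer or innate lymphoid-like (390), enteric glia-like (298), smooth muscle-like (239), pericyte-like (238), B cell-like (228), lymphatic endothelial-like (166) and dendritic cell-like (120). Plasma cell-like (42), enteric neuron-like (27) and epithelial-like (22) cells and 29 mitotic cells left unnamed were too few to test. The pericyte-like class also had all 7 listed smooth muscle markers raised, and these summed to 7601 CPM (counts scaled to a total of 1e6) in it, against 17433 CPM in smooth muscle-like cells. Smooth muscle-like cells in turn carried 8389 CPM of the 7 fibroblast markers, against 30488 CPM in fibroblast-like cells. The part that these markers' cells had in the members' values of both mural classes was not tested.

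The family was sparse but unevenly spread. Among the retained cells, Gas6 had 1500 UMIs in 1038 cells (17.3%), Axl 1137 UMIs in 928 cells (15.5%), Pros1 738 UMIs in 593 cells (9.91%) and Mertk 284 UMIs in 229 cells (3.83%). Tyro3 had 20 UMIs, each in a different cell. Per gene, Gas6 (ENSMUSG00000031451) lies at chr8:13465374-13494490 on the minus strand of GRCm38 (GENCODE M21), Pros1 (ENSMUSG00000022912) at chr16:62854307-62929346 on the plus strand, and Axl (ENSMUSG00000002602) at chr7:25757273-25788705 on the minus strand. Mertk (ENSMUSG00000014361) at chr2:128698956-128802894 and Tyro3 (ENSMUSG00000027298) at chr2:119797733-119818104 are both on the plus strand. Gas6 overlaps Tmem255b on the opposite strand, which had 89 UMIs over the named classes, against 1493 for Gas6. Mertk overlaps the antisense gene Gm14011, whose symbol had no row in the tables, and on its own strand the small nucleolar RNA gene Gm23172, which had 2 UMIs over the named classes, against 283 for Mertk. Whether counting used strand is not given in the sources used here.

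Levels are given as CPM of a class's summed UMIs, as the mean ± SD of the 2 replicates, and each gene is compared only with itself across classes. Classes were compared pair by pair with edgeR's quasi-likelihood test on the sums, with the replicate as a block and the Benjamini-Hochberg adjustment over all genes and pairs; a pair was called at an adjusted p below 0.05. In these bulk sums, fewer cells with a transcript and fewer transcripts per cell cannot be told apart. Over all genes tested, 39.1% of the tests of pairs of classes were called. Of its 45 pairs, Gas6 was called in 36, Pros1 in 33, Axl in 29 and Mertk in 25. Tyro3 did not pass the filter on low counts, which asked for 46.3 CPM in enough sums, and so has no call in this fit. Mertk passed that filter through 3 classes, blood endothelial-like, macrophage-like and pericyte-like cells, so differences between these and the lower classes are partly built in. Gas6 and Pros1 reached the minimum in 6 classes each and Axl in 5.

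**Figure D1:**
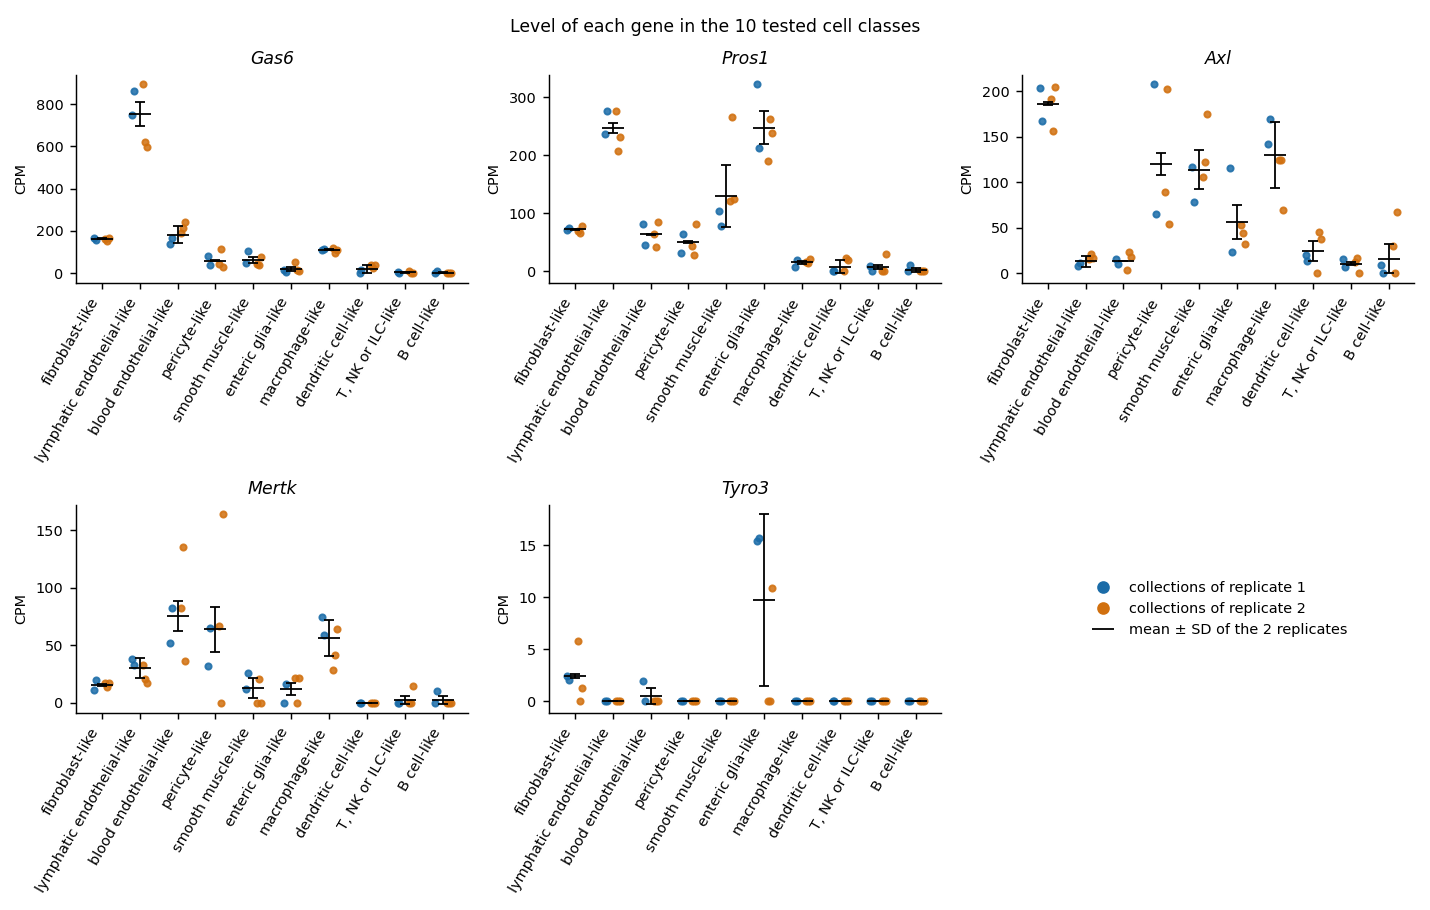
CPM (linear axis from 0, its own range in each panel) of the 5 genes in the 10 tested classes; points are collections, and black bars are the mean ± SD of the 2 replicates. Gas6 stands at 597 to 896 CPM in lymphatic endothelial-like cells, and Axl is near the axis in both endothelial classes.

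Gas6, the ligand of all 3 receptors, was highest in lymphatic endothelial-like cells. Collections 1A and 1B gave 748 and 860 CPM there, and collections 2A, 2B and 2C gave 896, 623 and 597 CPM. The mean was 753 ± 58.0 CPM in lymphatic endothelial-like cells, against 181 ± 39.8 CPM in blood endothelial-like cells (n = 2 each), and no lymphatic collection overlapped a blood endothelial one. The log2 fold change was 1.91 ± 0.17 (SE) over blood endothelial-like cells (adjusted p = 1.4e-27, edgeR) and 1.96 ± 0.16 over fibroblast-like cells (adjusted p = 3.3e-34). Gas6 was higher in lymphatic endothelial-like cells than in each of the other 9 classes, as 3.03% of all tested genes were. The class was named from its markers, so their level in it is no separate check. Lymphatic endothelial markers summed to 24965 CPM in it, against 102 CPM in blood endothelial-like and 379 CPM in fibroblast-like cells. The 7 blood endothelial markers summed to 1768 CPM in it, against 7123 CPM in blood endothelial-like cells. Their part in the Gas6 level was not tested.

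Below the lymphatic class, Gas6 was next highest in blood endothelial-like and fibroblast-like cells. Blood endothelial-like cells held 139 and 168 CPM in the collections of replicate 1 and 188, 212 and 241 CPM in those of replicate 2. Fibroblast-like cells were tighter, at 168, 159, 164, 152 and 166 CPM in collections 1A, 1B, 2A, 2B and 2C, a mean of 163 ± 2.15 CPM. Blood endothelial-like and fibroblast-like cells did not differ beyond their spread (log2 difference 0.04, adjusted p = 0.86, edgeR). Macrophage-like cells came next at 111 ± 1.72 CPM. Fibroblast-like cells were above them by 0.52 on the log2 scale (adjusted p = 0.017), a call that was lost in 4 of 12 alternative analyses (adjusted p up to 0.61). Smooth muscle-like (62.7 ± 15.8 CPM) and pericyte-like cells (58.7 ± 2.09 CPM) were not called against each other (adjusted p = 0.86). Macrophage-like cells were above smooth muscle-like cells by 1.06 on the log2 scale (adjusted p = 0.014, kept in 7 of 12 alternatives, up to 0.24) and above pericyte-like cells by 1.22 (adjusted p = 0.0095, kept in 8 of 12, up to 0.15), and both calls were lost without replicate 1 and again without replicate 2. Enteric glia-like cells had 19.5 ± 11.2 CPM and dendritic cell-like cells 19.0 ± 18.8 CPM. Smooth muscle-like cells were called above enteric glia-like cells by 1.55 (adjusted p = 0.028) and above dendritic cell-like cells by 1.74 (adjusted p = 0.042). Each call was kept in 8 of 12 alternatives (adjusted p up to 0.84 and 0.69) and lost without replicate 1, and at 5% mitochondrial UMIs the differences turned to -1.49 (adjusted p = 0.46) and -0.96 (adjusted p = 0.69). Pericyte-like cells were not called against either class (adjusted p = 0.075 and 0.09). T, natural killer or innate lymphoid-like cells (2 UMIs) and B cell-like cells (1 UMI) were near 0.

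The Gas6 level was also expressed as a share of cells at equal depth. These shares come from the same UMIs as the CPM and are no separate evidence. Cells were thinned to 500 UMIs, and cells with fewer were left out: 7 lymphatic endothelial-like, 18 blood endothelial-like, 113 fibroblast-like and 12 B cell-like cells. Of the lymphatic endothelial-like cells thinned, 55 of 159 had a Gas6 UMI, or 34.6% (95% exact interval 27.2 to 42.5%). The interval pools the cells of both replicates and does not measure the spread between replicates. Unthinned, 101 of all 166 did, or 60.8%. The thinned share was 10.1% in blood endothelial-like cells, 7.75% in fibroblast-like cells and 0.463% in B cell-like cells, the last, with a median of 1026 UMIs per cell, taken as the background of free RNA. Lymphatic endothelial-like cells, with a median of 1530 UMIs, made up 2.77% of the retained cells and 3.85% of their UMIs but held 19.8% of all Gas6 UMIs. Fibroblast-like cells, 52.3% of the cells, held 49.4%. Among the classes too small to test, enteric neuron-like cells had 9 Gas6 UMIs, all in replicate 1, and epithelial-like cells had 6, all in replicate 2.

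**Figure D2:**
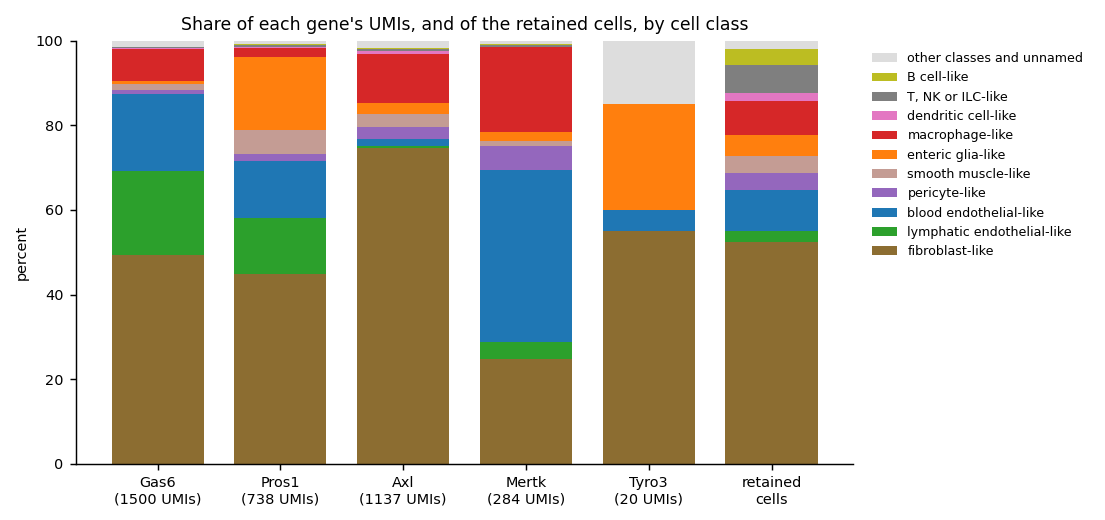
Percent of each gene's UMIs that fell in each cell class (stacked bars, first 5) and percent of the 5985 retained cells in each class (last bar). Lymphatic endothelial-like cells hold 19.8% of the Gas6 UMIs, fibroblast-like cells 74.6% of the Axl UMIs and blood endothelial-like cells 40.5% of the Mertk UMIs.

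Pros1, the other ligand, was highest in enteric glia-like and lymphatic endothelial-like cells. Enteric glia-like cells, the support cells of the gut's nerve plexuses, are a neural class. Enteric glia-like cells had 323 and 212 CPM in collections 1A and 1B and 191, 263 and 238 CPM in collections 2A, 2B and 2C. Lymphatic endothelial-like cells had 237, 276, 277, 208 and 232 CPM in the same order. The means were 248 ± 28.8 and 247 ± 8.05 CPM, the collections overlapped, and the log2 difference of glia over lymphatic cells was 0.18 ± 0.24 (adjusted p = 0.6, edgeR). Each of the pair was above the other 8 classes. Enteric glia-like cells exceeded fibroblast-like cells (72.6 ± 1.08 CPM) by 1.68 ± 0.20 on the log2 scale (adjusted p = 3.7e-15), and lymphatic endothelial-like cells exceeded blood endothelial-like cells (63.7 ± 0.709 CPM) by 1.77 ± 0.25 (adjusted p = 2.7e-11). So both ligands were higher in lymphatic than in blood endothelial-like cells, whereas enteric glia-like cells were high for Pros1 and low for Gas6. Among cells thinned to 500 UMIs, a Pros1 UMI was found in 30 of 295 enteric glia-like cells (10.2%) and in 17 of 159 lymphatic endothelial-like cells (10.7%), with 3 and 7 shallower cells left out. Unthinned, the shares were 32.2% in enteric glia-like and 36.1% in lymphatic endothelial-like cells. The thinned share was 3.05% in fibroblast-like cells and 0 in B cell-like cells, for which the exact upper bound was 1.69%.

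Immediate-early and heat shock genes that tissue dissociation is known to induce took their largest share of UMIs in enteric glia-like cells, 4.12% ± 0.275. They took 1.71% in lymphatic endothelial-like, 2.35% in fibroblast-like and 0.284% in B cell-like cells. Their part in the Pros1 level was not tested. Smooth muscle-like cells came next for Pros1, at 130 ± 53.1 CPM, with 105, 78.2, 121, 265 and 125 CPM in collections 1A, 1B, 2A, 2B and 2C. Enteric glia-like cells were above them by 1.07 on the log2 scale (adjusted p = 0.00093), and this call was lost without replicate 1, at 5% mitochondrial UMIs and with split UMIs (adjusted p up to 0.6). Lymphatic endothelial-like cells were above them by 0.89 (adjusted p = 0.011), a call kept in 8 of 12 alternatives and lost without replicate 1 (adjusted p up to 0.59). Macrophage-like cells had little Pros1, 15.7 ± 2.73 CPM, and the dendritic and lymphoid classes at most 8.08 CPM.

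Axl, the receptor known for its response to Gas6, was mainly a mesenchymal and macrophage transcript. Fibroblast-like cells had 203, 167, 191, 157 and 204 CPM in collections 1A, 1B, 2A, 2B and 2C, a mean of 186 ± 1.85 CPM. Macrophage-like cells had 141, 170, 125, 124 and 69.0 CPM, a mean of 130 ± 36.5 CPM, so that the collections of these classes overlapped. Axl was called higher in fibroblast-like cells than in each of the other 9 classes, as 2.63% of tested genes were. Over macrophage-like cells the log2 fold change was only 0.49 ± 0.18 (adjusted p = 0.016, edgeR), and this call was kept in 5 of 12 alternatives, with adjusted p from 0.0014 to 0.64, and was lost without replicate 2 among others. Pericyte-like (120 ± 12 CPM) and smooth muscle-like cells (114 ± 21.4 CPM) did not differ from each other (adjusted p = 0.98) or from macrophage-like cells (adjusted p = 0.35 and 0.28). The call of fibroblast-like over pericyte-like cells (adjusted p = 0.0058) was kept in 9 of 12 alternatives and lost without replicate 2 (adjusted p up to 0.089). That over smooth muscle-like cells (adjusted p = 0.0021) was kept in 10 of 12 and lost without replicate 1 (adjusted p up to 0.11). Pericyte collections ranged from 54.7 to 208 CPM on 2 to 13 UMIs.

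Both endothelial classes had little Axl: 13.3 ± 6.10 CPM in lymphatic endothelial-like cells, from 1 UMI in each collection, and 13.4 ± 0.111 CPM in blood endothelial-like cells. Axl was higher in fibroblast-like than in blood endothelial-like cells by 3.87 ± 0.26 on the log2 scale (adjusted p = 3.5e-48, edgeR) and than in lymphatic endothelial-like cells by 4.10 ± 0.43 (adjusted p = 3.1e-20). The class with the most Gas6 per UMI was thus among the lowest for Axl, and lymphatic endothelial-like cells were not distinguished in Axl from T, natural killer or innate lymphoid-like cells (10.7 CPM, adjusted p = 0.91). Enteric glia-like cells were intermediate at 56.5 ± 19.0 CPM, of which 15 of 29 UMIs came from collection 1A.

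Mertk, like Tyro3 a receptor of both ligands, was highest in blood endothelial-like cells, macrophage-like cells and pericyte-like cells. Blood endothelial-like cells had 51.7, 82.0, 82.7, 136 and 36.2 CPM in collections 1A, 1B, 2A, 2B and 2C, on 115 UMIs and with a mean of 75.5 ± 13.1 CPM. Macrophage-like cells had 74.6, 59.2, 28.3, 41.4 and 63.6 CPM, a mean of 56.0 ± 15.5 CPM. Pericyte-like cells had 16 UMIs, and their collections ran from 0 to 164 CPM around a mean of 63.7 ± 19.3 CPM. These 3 classes overlapped and were not called against each other (adjusted p of 0.47 to 0.86). Blood endothelial-like cells exceeded fibroblast-like cells (15.3 ± 1.04 CPM) by 2.18 ± 0.30 on the log2 scale (adjusted p = 2.3e-12, edgeR), and macrophage-like cells did so by 1.88 ± 0.34 (adjusted p = 2.1e-07). Pericyte-like cells did so by 1.74 ± 0.51 (adjusted p = 0.0027), and that call was lost at 500 genes, at 5% mitochondrial UMIs and with finer clusters (adjusted p up to 0.48).

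Between blood endothelial-like and fibroblast-like cells, Mertk and Axl therefore ran in opposite directions, each past the threshold. Within the endothelium, Mertk was higher in blood than in lymphatic endothelial-like cells (29.8 ± 8.88 CPM, 12 UMIs) by 1.45 ± 0.46 on the log2 scale (adjusted p = 0.0054, edgeR), the reverse of Gas6 and Pros1, and DESeq2 lost this call (adjusted p = 0.053). The 7 macrophage markers summed to 58.7 CPM in blood endothelial-like cells, with none at 0, and to 46.8 CPM in pericyte-like cells, with 2 at 0. They summed to 6101 CPM in macrophage-like cells, and their part in the Mertk levels was not tested. Dendritic cell-like cells had no Mertk UMI, which at 3 counts allows up to 10.1 CPM over the class. Mertk could not be tested with either replicate left out, since it then failed the filter on low counts.

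Tyro3 was at the limit of detection. Of its 20 UMIs, 11 were in fibroblast-like cells, 5 in enteric glia-like, 3 in enteric neuron-like and 1 in blood endothelial-like cells. Macrophage-like cells had none, which at 3 counts allows up to 2.95 CPM. The enteric neuron-like class had 27 cells only, and its 3 Tyro3 UMIs came from collections 1A and 2C. The glial mean was 9.73 ± 8.22 CPM, against 2.41 ± 0.182 CPM in fibroblast-like cells. With no filter on low counts, 0 of the 45 pairs of classes were called for Tyro3 (edgeR). Such intervals and limits cover counting error only.

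Ligand and receptor UMIs were also counted within the same cells. In fibroblast-like cells, 140 of 601 cells with a Gas6 UMI also had an Axl UMI (23.3%), against 21.5% of fibroblast-like cells without Gas6. In blood endothelial-like cells, 40 of 179 cells with Gas6 had Mertk (22.3%), against 11.6% of the others, but cells with Gas6 were deeper (median of 2641 UMIs, against 1624). In lymphatic endothelial-like cells, 49 of 101 cells with Gas6 had Pros1 (48.5%), against 16.9% of the others, again with different depths (2229 UMIs, against 1007). In macrophage-like cells 15 of 100 cells with Axl had Mertk (15%), against 7.94% of cells without it, at 2398 and 1677 UMIs. These shares are descriptions, and the part of depth in them was not tested.

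Fibroblast-like cells were divided into 5 clusters without the family or pathway genes. Cluster 1 (1430 cells) was led by Edil3, Tnfsf13b, Osr1 and Stmn2. It had raised Clec3b and Mfap5, listed as adventitial or submucosal markers, and C1qtnf3, listed as a lamina propria marker. Cluster 2 (594 cells) was led by Pcolce2, Pi16 and Has1, listed as adventitial or submucosal markers. Clec3b of that list was not raised in it, while the listed lamina propria markers Scara5 and Col14a1 were. Cluster 3 (464 cells) was led by Serpina3g, Niacr1 and the interferon-inducible chemokine gene Cxcl10. Cluster 4 (367 cells) was led by Sox6, Bmp3 and Edn3 and had raised Foxl1, and cluster 5 (278 cells) was led by Plau, Stc1 and Nrg1 and had all 7 subepithelial markers raised, F3 and Foxl1 among them. Over all genes, 23.1% of the tests of pairs of these clusters were called. Single calls were followed over the 10 alternatives that kept these same clusters. Split UMIs and other cluster resolutions are not among them.

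Gas6 was called in 6 of the 10 pairs of clusters. Cluster 4 had 241, 239, 255, 305 and 302 CPM in collections 1A, 1B, 2A, 2B and 2C, and cluster 1 had 253, 208, 206, 162 and 192 CPM. The means were 263 ± 32.3 CPM in cluster 4, 211 ± 32.5 in cluster 1 and 159 ± 4.28 in cluster 3, against 83.5 ± 16.8 in cluster 2 and 71.6 ± 10.4 in cluster 5. Pairs among clusters 4, 1 and 3 were not called (adjusted p of 0.095 to 0.56), nor was cluster 2 against cluster 5 (0.81), while all 6 pairs between these sets were. Cluster 4 was above cluster 5 by 1.63 ± 0.29 on the log2 scale (adjusted p = 9.2e-07, edgeR) and above cluster 2 by 1.48 ± 0.24 (adjusted p = 7.5e-08). Clusters 4 and 5 both had raised Sox6, Foxl1, Ednrb and Procr, and no collection of cluster 5 (59.1 to 101 CPM) reached the lowest of cluster 4. Of these 6 calls, 5 were kept in all 10 alternatives, and that of cluster 3 over cluster 2 was lost without replicate 2 (adjusted p = 0.052).

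Pros1, called in 5 of 10 pairs, followed another order. It averaged 98.6 ± 3.10 CPM in cluster 1 and 82.6 ± 17.8 in cluster 3, then 58.6 ± 15.4 in cluster 2, 33.6 ± 0.348 in cluster 4 and 23.4 ± 9.64 in cluster 5. Cluster 1 was above cluster 4 by 1.58 ± 0.37 on the log2 scale (adjusted p = 0.00036, edgeR) and above cluster 5 by 1.79 ± 0.39 (adjusted p = 7.9e-05), and cluster 3 was above both as well. Cluster 4 was therefore highest for Gas6 by mean and low for Pros1. Cluster 2 was called above cluster 5 (adjusted p = 0.039), a call kept in 6 of 10 alternatives and lost without replicate 2 (adjusted p up to 0.52). That of cluster 3 over cluster 4 (adjusted p = 0.0015) was kept in 8 of 10 and lost without replicate 1 (adjusted p up to 0.098).

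Axl was called in 4 of 10 pairs. Its highest level was in cluster 2, at 313, 219, 266, 202 and 238 CPM in collections 1A, 1B, 2A, 2B and 2C and a mean of 253 ± 23.5 CPM. Its lowest was in cluster 3, at 82.3, 80.0, 163, 144 and 105 CPM and a mean of 109 ± 39.7 CPM, and no collection of cluster 3 reached the lowest of cluster 2. Cluster 2 exceeded cluster 3 by 1.16 ± 0.21 on the log2 scale (adjusted p = 1.6e-06, edgeR), which held in all 10 alternatives. The other 3 calls, cluster 2 over cluster 1 (adjusted p = 0.0024), cluster 1 over cluster 3 (0.04) and cluster 5 over cluster 3 (0.042), were kept in 8, 5 and 4 of 10 (adjusted p up to 0.12, 0.41 and 0.72), and each was lost without replicate 1. Clusters 4, 1 and 5 lay between, at 208 ± 44.8, 185 ± 2.18 and 168 ± 8.44 CPM. Mertk was at 10.4 to 17.2 CPM in all 5 clusters and Tyro3 at 0 to 4.44 CPM; neither passed the filter there, and with no filter no pair was called.

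**Figure D3:**
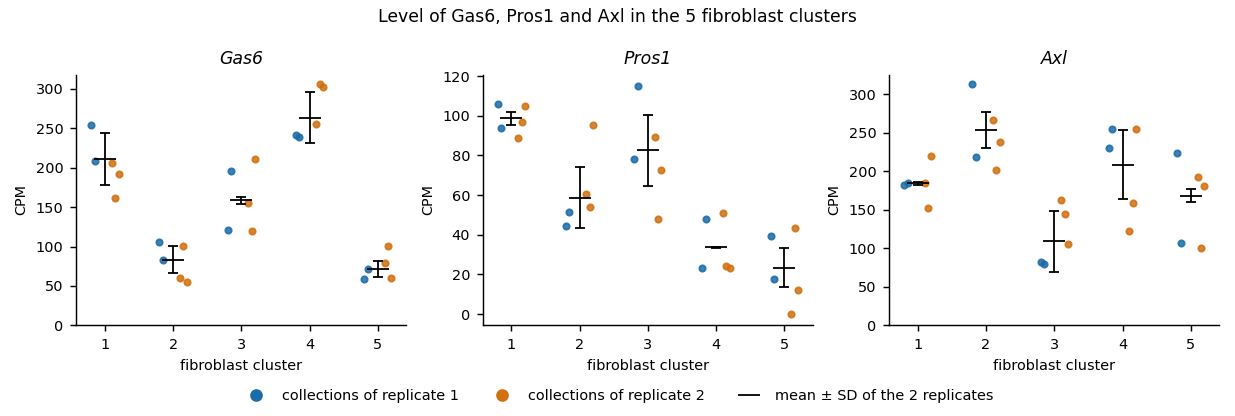
CPM (linear axis) of Gas6, Pros1 and Axl in the 5 fibroblast clusters; points are collections, and black bars are the mean ± SD of the 2 replicates. Gas6 is low in clusters 2 and 5, Pros1 in clusters 4 and 5, and Axl in cluster 3.

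Macrophage-like cells fell into 2 clusters that differed in Gas6 level, given here without a test. A cluster of 324 cells led by Hpgds, Mrc1 and Pf4 had 215 and 183 CPM of Gas6 in replicates 1 and 2, against 40.2 and 21.6 CPM in a cluster of 154 cells led by the class II genes H2-Eb1 and H2-Aa and by Mmp13. Pros1 stood at 23.9 and 28.7 CPM in the Mrc1 cluster, against 6.70 and 4.32 CPM. Axl was 210 and 108 CPM, against 117 and 99.3 CPM, and Mertk was 76.5 and 43.1 CPM, against 60.3 and 47.5 CPM, so the replicates overlapped for both receptors. Within each replicate, Axl was higher in the Mrc1 cluster, whereas Mertk was higher there in replicate 1 and lower in replicate 2. The Mrc1 cluster also held more of the summed markers of other classes: 1643 CPM of fibroblast markers, against 1081 CPM, 849 CPM of blood endothelial markers, against 362 CPM, and 390 CPM of lymphatic endothelial markers, against 77.3 CPM. Its cells were shallower, with a median of 1262 UMIs, against 2980. The part of these in the Gas6 level was not tested.

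**Figure D4:**
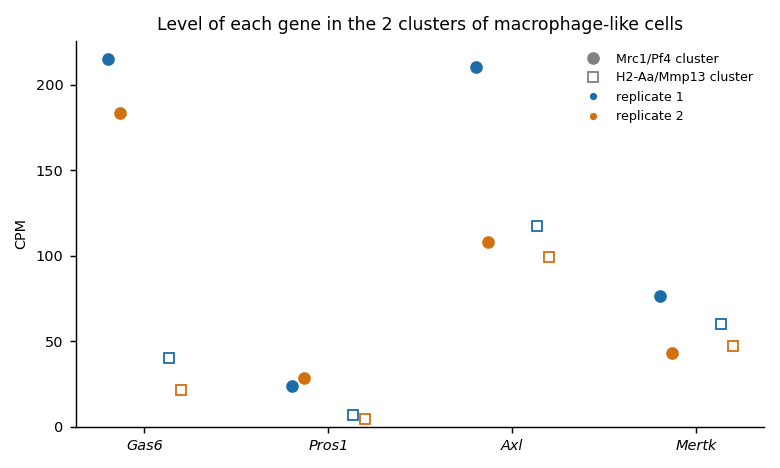
CPM (linear axis from 0) of 4 genes in each replicate, for the 324 macrophage-like cells led by Mrc1 and Pf4 (filled circles) and the 154 led by H2-Aa and Mmp13 (open squares). Gas6 is at 215 and 183 CPM in the filled circles and at 40.2 and 21.6 CPM in the open squares.

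By Pearson correlation of log2 CPM over the 20 class sums, the genes most like each member were listed as a description; sums of the same class and of the same suspension are not independent. Gas6 was most like Cyb5r3 (r = 0.89), Hsd3b7, Plod1, Bst2 and Hspa1b. Pros1 was most like Fam115a (r = 0.94), Cyr61, Pcdhga9 and Flnc. Axl was most like Psd3 (r = 0.89), Cebpb, Zeb2, the integrin gene Itgb5 and the engulfment receptor gene Lrp1, and Mertk was most like Stard8 (r = 0.88), Mtus1, Klf10, Slc38a2 and Phf11d. Between members, r was 0.73 for Gas6 and Mertk, 0.66 for Gas6 and Pros1, and 0.26 for Gas6 and Axl. Over the 10 sums of fibroblast clusters, Gas6 was most like Ttc33 (r = 0.98), Cdc26, Galk1, Ndufa3 and Bsg, Pros1 like Gpr124 (r = 0.95), Cygb, Enpp3, Slco3a1 and Gda, and Axl like Mpp7 (r = 0.89), Zdhhc8, Ccnd2, Hnrnph2 and Acap2. There, r was 0.24 for Gas6 and Pros1 and -0.43 for Gas6 and Axl.

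The other genes around the receptors were taken from 5 lists and counted where 1 class was above each other class, as 31.8% of all 6930 tested genes were. Of the phosphatidylserine receptors, bridging molecules and engulfment genes, 13 of 20 tested met this, from 30 listed. Macrophage-like cells led for 4 of them, and 6.35% of all genes were led by that class. These were the inhibitory receptor genes Cd300a (434 ± 6.86 CPM) and Sirpa (202 ± 34.0), the scavenger receptor gene Cd36 (348 ± 32.3) and the phosphatidylserine-binding annexin gene Anxa5 (819 ± 45.5). The next class was dendritic cell-like for Cd300a (139 ± 70.9 CPM) and lymphatic endothelial-like for Sirpa (86.1 ± 19.7). It was blood endothelial-like for Cd36 (231 ± 48.7) and enteric glia-like for Anxa5 (648 ± 42.6). Fibroblast-like cells led for Lrp1 (234 ± 8.73 CPM), Anxa1 (492 ± 30.9) and Thbs1 (471 ± 2.16). The next class was smooth muscle-like for Lrp1 (111 ± 25.8 CPM) and Anxa1 (395 ± 106), and blood endothelial-like for Thbs1 (400 ± 38.6). Mfge8, which bridges phosphatidylserine to integrins, was highest in pericyte-like cells, at 858 ± 10.1 CPM, against 271 ± 6.37 CPM in fibroblast-like cells, the next class (log2 fold change 1.39 ± 0.16, adjusted p = 1.9e-16, edgeR).

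Lymphatic endothelial-like cells led for Stab1, a scavenger receptor that binds phosphatidylserine, with 487 ± 94.5 CPM there and 100 ± 8.04 CPM in the next class, macrophage-like cells (log2 fold change 1.98 ± 0.21, adjusted p = 2.4e-19, edgeR). Enteric glia-like cells led for the integrin gene Itgav (174 ± 1.70 CPM) and the engulfment adaptor gene Gulp1 (133 ± 10.2 CPM). Dendritic cell-like cells led for the phosphatidylserine receptor genes Timd4 (173 ± 132 CPM) and Havcr2 (190 ± 120 CPM), with wide spread between replicates. Timd4, Havcr2, Stab1 and Cd300a reached the minimum of the filter on low counts in 2 classes only, and Sirpa, Cd36 and Gulp1 in 3. Their differences from the lower classes are therefore partly built in.

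Of the vitamin K cycle and other Gla proteins, 2 of 4 tested (17 listed) led in a class, and both did so in fibroblast-like cells. Vkorc1, the enzyme that recycles vitamin K, was at 123 ± 2.85 CPM there, against 62.7 ± 15.8 CPM in smooth muscle-like cells (log2 fold change 1.18 ± 0.33, adjusted p = 0.0016, edgeR). Mgp, a Gla protein that inhibits calcification, had 1554 ± 99.9 CPM there and 79.5 CPM in dendritic cell-like cells, the next class (log2 fold change 4.45 ± 0.24, adjusted p = 1.3e-77). Of the sheddase genes and their inhibitor, 2 of 3 tested (4 listed) led in a class. Adam17, a protease known to cleave Mertk, was highest in macrophage-like cells (219 ± 18.7 CPM, against 49.1 ± 0.371 CPM in the next class, T, natural killer or innate lymphoid-like cells), and Timp3, an inhibitor of Adam17, was highest in lymphatic endothelial-like cells (6995 ± 294 CPM, against 2855 ± 363 CPM in enteric glia-like cells).

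Of the signalling and feedback genes, 3 of 17 tested (20 listed) led in a class: the adaptor gene Crk in blood endothelial-like cells, the focal adhesion kinase gene Ptk2 in enteric glia-like cells and the exchange factor gene Vav1 in macrophage-like cells. Vav1 reached the filter's minimum in 2 classes only and Ptk2 in 3, so their differences from the lower classes are partly built in. Of the nuclear receptors and lipid efflux genes that respond to engulfed cells, 4 of 7 tested (9 listed) did. The cholesterol transporter gene Abca1 (477 ± 27.8 CPM) led in macrophage-like cells, the liver X receptor gene Nr1h2 (116 ± 6.88 CPM) in blood endothelial-like cells, and Ppard (78.1 ± 28.1 CPM) in enteric glia-like cells, through which class alone it passed the filter. The count of 24 such genes fell to 14 without replicate 1, of which 12 were among the 24.

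**Figure D5:**
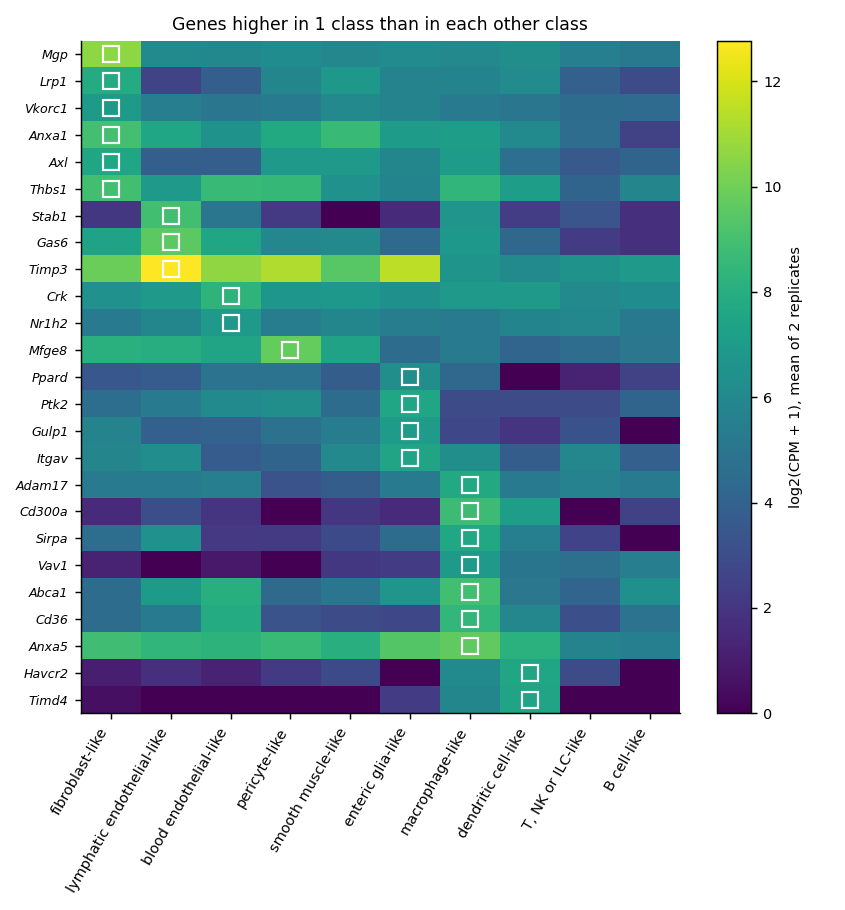
Mean log2(CPM + 1) of the 2 replicates over the 10 tested classes for Gas6, Axl and the listed genes reported here that were higher in 1 class than in each other class (white squares mark that class). Squares lie in 7 of the 10 classes; fibroblast-like and macrophage-like cells hold most of them.

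Across the fibroblast clusters, 10.9% of all 6623 tested genes were higher in 1 cluster than in each other, and 8 of the listed genes were. These were 5 of 15 tested phosphatidylserine receptor, bridging and engulfment genes, 1 of 5 vitamin K cycle and Gla protein genes, 2 of 15 signalling genes, 0 of 4 shedding genes and 0 of 4 nuclear receptor and lipid efflux genes. Cluster 2, where Axl was highest, led for Thbs1 (1216 ± 54.0 CPM, against 508 ± 157 CPM in cluster 5), Lrp1 (346 ± 19.5 CPM, against 283 ± 14.9 CPM in cluster 1) and Mgp (2607 ± 200 CPM, against 2277 ± 210 CPM in cluster 1). Cluster 3, where Axl was lowest, led for Socs3 (2137 ± 101 CPM, against 1058 ± 205 CPM in cluster 4) and Socs1 (212 ± 41.2 CPM, against 118 ± 27.4 CPM in cluster 5), the cytokine signalling inhibitors that TAM receptors are known to induce in dendritic cells, and for Cd36. A link between Axl and the levels of Socs1 and Socs3 in these clusters was not tested. Cluster 5 led for Mfge8 (490 ± 29.1 CPM, against 348 ± 130 CPM in cluster 4) and Calr (1895 ± 218 CPM, against 1465 ± 171 CPM in cluster 3). No member was higher in 1 cluster than in each other.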

How the data were processed

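Each of the 5 collections had a deposited table of counts, UMIs per gene and cell barcode, made by the authors. The submitters' processing notes name STAR 2.6 as a tool and mm10 as the genome build. What counted the UMIs, with which annotation, and how barcodes were chosen is not given in the sources used here. Barcodes with under 300 genes (1263) or over 10% mt- UMIs (667) were left out. Scrublet called 20 doublets (0.333%), under 0.5%, so that the caller was taken not to have worked; these 20 were left out too. The 5985 retained cells were clustered with scanpy 1.11.5 (2000 variable genes, 30 principal components, Leiden resolution 1, and 0.5 within fibroblast-like cells), without the 85 family and pathway genes.

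A cluster took the name of a class with at least 3 markers raised (CPM at least 2 times the median over clusters, with a UMI in at least 5% of cells), choosing the class whose markers stood nearest their highest level; a cluster with 2 or more mitotic genes among its 10 leading genes stayed unnamed. The markers were listed beforehand, but this scoring was set after the clusters' marker tables had been seen. Members and lists were chosen with earlier results of these data known. Clusters and tests used the same cells.

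UMIs were summed per replicate and class with at least 20 cells in each replicate (73009 to 2365538 UMIs), because cells of a sample are not replicates. All 45 pairs of 10 classes, and all 10 pairs of 5 fibroblast clusters, were tested with edgeR 4.0.16 in R 4.3.3 (TMM, filterByExpr, quasi-likelihood F test, two-sided). The replicate was a block, since same-numbered sums come from the same suspension. The standard error is the size of the log2 fold change over the root of F. The procedure was tested on simulated data. Alternatives were DESeq2 1.42.0, RLE factors, no gene filter, no block, sums per collection, each replicate left out, other cell filters and cluster resolutions, and UMIs split between clustering and testing. Intervals for shares of cells are exact binomial at 95%, and a count of 0 was given the limit of 3 counts. Named genes were the members, the 5 most like each, and up to 4 listed genes per list and class above all other classes; some that met this rule are counted but not reported here. Coordinates are from GENCODE M21 (GRCm38, the build called mm10).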

Additional observations from a re-analysis of the deposited data

Results flagged for a closer look

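Pros1 in smooth muscle-like cells stood apart in 1 collection: 265 CPM in collection 2B, on 13 UMIs, against 78.2 to 125 CPM in the other 4. The gap to the nearest collection, divided by the range, was 0.75, above Dixon's 95% limit of 0.71 for 5 values. It was the only 1 of 33 sets of collections examined to pass, and chance alone gives about 1 in 20.

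The barcodes left out of the comparisons also held the family. Those with under 300 genes had 117 CPM of Gas6, 55.8 CPM of Pros1, 112 CPM of Axl and 22.8 CPM of Mertk, against 147, 72.5, 112 and 27.9 CPM over all retained cells. Those with over 10% mitochondrial UMIs had 80.6 CPM of Gas6, 35.3 CPM of Pros1, 76.2 CPM of Axl and 24.3 CPM of Mertk. In these, Tyro3 reached 11.04 CPM (95% exact Poisson interval 5.29 to 20.3), from 10 UMIs in 8 barcodes, against 1.97 CPM (1.2 to 3.04) in retained cells. Of these 667 barcodes, 57.1% had at least 3 smooth muscle markers, 39.4% fibroblast markers and 2.25% enteric neuron markers to that number, against 8.17%, 64.7% and 0.451% of retained cells. Of the 8 with Tyro3, 2 had at least 3 smooth muscle markers, 3 fibroblast markers and 3 enteric neuron markers.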

How the results depend on the processing

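Of 177 values recomputed, 146 stayed close (counts within 1.5 times, CPM levels within 1 SD of the replicates). A CPM level without 1 replicate is the other replicate's value, which always lies within 1 SD of the mean of 2. Such values are among the 146 and say nothing of stability. Counts and levels carry no sign, so direction was followed in single pairs only. Gas6 was above all other classes in lymphatic endothelial-like cells in all 12 alternatives; Axl was so in fibroblast-like cells in 4. The count of members above all other classes, 2, was therefore 1 with DESeq2, no gene filter, no replicate block, at most 5% mitochondrial UMIs, without the top doublet scores, at Leiden resolution 2.0, and 1 to 1 without either replicate. Pathway genes so placed numbered 14 to 18 without a replicate, against 24. Called pairs of fibroblast clusters were, for Gas6 (60%), 100% with split UMIs; for Pros1 (50%), 30% with DESeq2, 0% with split UMIs (3 clusters, 3 pairs), 33.3% at resolution 0.3 and 28.6% at 1.0; for Axl (40%), 10% with DESeq2, 20% without the replicate block, 20% at 5% mitochondrial UMIs, 66.7% with split UMIs and 10% to 50% without a replicate. In CPM, split UMIs gave 854 for Gas6 in lymphatic endothelial-like cells and 217 for Pros1 in enteric glia-like cells. Axl in fibroblast-like cells was 193 with split UMIs. The fibroblast clusters re-made from split UMIs were not matched to the main clusters. The highest level in any of them was 220 for Gas6, 88.9 for Pros1, 24.6 for Mertk and 5.55 for Tyro3. These were set against cluster 4 for Gas6 and cluster 1 for the others. TMM scaling gave 690 for Gas6 in lymphatic endothelial-like cells, 205 for Axl in fibroblast-like cells and 90.2 for Pros1 in cluster 1; Axl in fibroblast-like cells was 190 at 500 genes and 191 at 5% mitochondrial UMIs. The cause of these moves was not tested. All-class calls kept in every alternative were 25 of 36 for Gas6, 25 of 33 for Pros1, 19 of 29 for Axl and 16 of 25 for Mertk, the last over 8 alternatives, since Mertk failed the filter with sums per collection, without either replicate and with split UMIs. Single pairs changed sign for Gas6 in smooth muscle-like over dendritic cell-like (-0.96) and enteric glia-like cells (-1.49) at 5% mitochondrial UMIs, and for Mertk in pericyte-like over smooth muscle-like cells (-0.31) at resolution 2.0. Mertk in pericyte-like cells rests on 16 UMIs, and Tyro3 on 20 UMIs in all.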
